A study of Rattus norvegicus with 21 samples.

Results

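The 10 genes described here are Tesc, Myo16, Rab34, St6gal1, Pmp22, Agt, Ambp, A1bg, Serpine2 and Tff3, and they were selected on their array levels at 0 h, chosen because they read lower in the line pCTSH1 than in the line pcDNA before cytokines were given. They are 10 of the 13438 genes that the arrays measured with at least 1 probe set of a single gene symbol, and each is represented by its brightest such probe set over all 21 arrays. Among these 13438 genes, ordered from the lowest difference between the lines at 0 h, they hold ranks 2 to 9 (Tesc, Myo16, St6gal1, Agt, Rab34, Pmp22, Tff3 and Serpine2), 17 (Ambp) and 68 (A1bg). No threshold on that difference was stated. The 0 h arrays of both lines thus chose the genes, and their values are a description. The genes were picked as ones whose difference lasts, so the arrays at 6 and 16 h may have been in view as well, and calls at those times are no independent support for the choice.

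INS-1 is a rat insulinoma line that makes insulin and is used to study pancreatic beta cells. pCTSH1 is a single clone of INS-1 that stably overexpresses cathepsin H (CTSH), a lysosomal cysteine protease, from a plasmid. pcDNA cells carry the empty vector, and INS1 cells are untransfected. pCTSH1 and pcDNA were each measured at 0 h and after 6 and 16 h with 150 pg/ml recombinant mouse IL-1β and 5 ng/ml recombinant rat IFNγ, cytokines that injure beta cells, and INS1 was measured only without cytokines. This made 7 groups of 3 arrays. With 1 clone, CTSH itself and other properties of that clone cannot be told apart, and the promoter of the plasmid and whether pcDNA is a clone or a pool are not given in the sources used here. No array of untreated cells was made at 6 or 16 h, so a change from 0 h cannot be told apart from time in culture. In these bulk samples, fewer expressing cells and less RNA per cell cannot be told apart either. The labels number the replicates without saying that they are separate cultures, and p-values then measure only the spread between these arrays.

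The products of the 10 genes fall into 4 kinds. Agt, Ambp, A1bg and Serpine2 encode secreted proteins best known from blood plasma or the extracellular space, and Tff3 encodes a small peptide secreted with mucus in the gut. Rab34 and St6gal1 act at the Golgi apparatus, where secreted proteins are sorted and receive their sugars. Tesc and Myo16 encode a calcium-binding protein and an unconventional myosin, and Pmp22 a membrane protein of myelin. Secretion through the Golgi is the main task of a beta cell, while the liver is the usual source of several of these plasma proteins.

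RefSeq start regions on the rat build GRCr8, from 250 bases before to 50 after the annotated start, were matched for 9 of the 10 genes, all but Agt. Those of 4 genes are printed because these genes differed in gap or in course. Tesc had the largest difference between the lines at 0 and 6 h, and Rab34 kept its gap at all times. A1bg fell alike in both lines, and Tff3 fell in pcDNA. Capitals mark motif matches on either strand.
Tesc, chr12:44216491-44216790, minus strand: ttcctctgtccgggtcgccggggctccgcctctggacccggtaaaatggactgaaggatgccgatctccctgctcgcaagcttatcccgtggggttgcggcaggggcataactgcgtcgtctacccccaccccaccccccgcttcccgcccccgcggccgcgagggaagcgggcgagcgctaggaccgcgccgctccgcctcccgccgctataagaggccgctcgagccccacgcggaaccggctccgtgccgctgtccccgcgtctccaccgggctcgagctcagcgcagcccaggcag
Rab34, chr10:63581292-63581591, plus strand: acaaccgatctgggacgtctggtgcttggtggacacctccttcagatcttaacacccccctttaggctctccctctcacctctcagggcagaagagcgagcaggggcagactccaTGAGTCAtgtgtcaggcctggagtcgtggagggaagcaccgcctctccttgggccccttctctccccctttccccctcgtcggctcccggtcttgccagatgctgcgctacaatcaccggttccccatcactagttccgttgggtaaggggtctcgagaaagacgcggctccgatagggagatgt
A1bg, chr7:94387447-94387746, minus strand: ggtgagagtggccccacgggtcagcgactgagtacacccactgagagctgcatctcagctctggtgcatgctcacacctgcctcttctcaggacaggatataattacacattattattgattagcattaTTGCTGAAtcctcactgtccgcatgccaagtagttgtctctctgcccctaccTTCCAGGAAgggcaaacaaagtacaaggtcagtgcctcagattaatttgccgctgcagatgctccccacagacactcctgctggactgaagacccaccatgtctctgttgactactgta
Tff3, chr20:9199284-9199583, minus strand: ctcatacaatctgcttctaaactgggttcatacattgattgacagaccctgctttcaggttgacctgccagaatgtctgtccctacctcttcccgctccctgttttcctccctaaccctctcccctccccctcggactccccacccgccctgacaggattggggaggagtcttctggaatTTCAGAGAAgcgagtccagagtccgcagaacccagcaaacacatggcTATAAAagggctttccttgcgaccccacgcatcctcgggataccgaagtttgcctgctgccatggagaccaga
In all, 8 motifs were searched on both strands: the TATA box TATAAA, the AP-1 site TGANTCA, the CEBP site TTGCNNAA, the interferon-gamma activated (GAS) element TTCNNNGAA, the interferon response element (GAAA, any 2 bases, GAAA), the NF-kB site (GGGA, any base, TTTCC), the HNF1 half-site GTTAAT and the cyclic AMP element TGACGTCA. The Tff3 window holds a TATA box at -23 to -18 and a GAS match at -70 to -62, counted from the start. In the A1bg window a CEBP match lies at -121 to -114 and a GAS match at -69 to -61. Rab34 has an AP-1 match at -135 to -129, and the Tesc window has no match to any of the 8. The windows that are not printed add a TATA match for St6gal1 and a CEBP match for Pmp22. None of the other patterns was found in the 9 windows. Of all 33469 RefSeq windows of this length, 14.2% hold the TATA pattern, 7.33% the AP-1, 10.6% the CEBP and 8.87% the GAS pattern, so single matches are common. The interferon response element is found in 3.92% of windows, the NF-kB pattern in 0.362%, the HNF1 half-site in 7.45% and the cyclic AMP element in 1.83%. The windows of St6gal1 and Myo16 lie 117707 and 116169 bases inside the annotated gene, and that of A1bg 426 bases inside it, so these 3 windows belong to inner starts of the gene models.

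The arrays gave log2 intensities on 1 scale, with array medians of 4.88 to 5.08 and mean correlations of 0.993 to 0.997 between replicates of a group. The brightest nonspecific control probe set of an array, taken as its background, lay at 3.88 to 4.17. Of the 210 values of the 10 genes, 209 were above it. Ctsh itself averaged 4.001, 4.07 and 4.45 in pCTSH1 at 0, 6 and 16 h and 3.90, 3.67 and 3.79 in pcDNA, close to background, so these arrays do not check the overexpression. The cells carried beta cell RNA: all 7 measured of 12 listed beta cell markers were above background in each group, with Ins1 at 13.72 in pCTSH1, 13.73 in pcDNA and 13.76 in INS1 at 0 h. None of 8 hepatocyte markers, of 3 measured Schwann cell markers and of 8 acinar and duct markers was above background in any line at 0 h, and neither was any of 4 measured endothelial markers. Of 7 fibroblast markers, 2 were above it in pCTSH1, 3 in pcDNA and 2 in INS1, led by Thy1 at 8.36, 8.21 and 8.33, and of 7 macrophage and leukocyte markers 2 in each line, led by Cd68 at 4.65, 4.69 and 4.65. The part of these markers in the results was not tested. Of 7 listed markers of other islet endocrine cells, 6 were measured and 2 were above background in each line at 0 h. They were led by the glucagon gene Gcg, at 8.88 in pCTSH1, 8.60 in pcDNA and 7.60 in INS1. Sst, Ppy, Irx2 and Hhex were at background. The spread between replicates was wider at 16 h than at 6 h (SD of the difference between 2 arrays 0.239 to 0.311 and 0.195 to 0.213 in pCTSH1, 0.237 to 0.281 and 0.194 to 0.216 in pcDNA), while the model assumes equal spread.

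Between the lines, all 10 genes read lower in pCTSH1 at 0 h, with differences of -2.04 to -0.66 on the log2 scale and a median of -1.41, where the median of all genes was near 0 (-0.005). In every one of the 10, the 3 pCTSH1 arrays lay below the 3 pcDNA arrays. These arrays chose the genes and the share of all probe sets without overlap at 0 h is not given, so this is a description only. Among all probe sets, 0.728% were called lower in pCTSH1 at 0 h, and since this contrast chose the genes nothing is read from their count. After 6 h of cytokines all 10 were called lower in pCTSH1 and none of their arrays overlapped (limma, Benjamini-Hochberg adjusted p below 0.05), with a median of -1.20. At that time 1.10% of all probe sets were called lower and 11.1% had lower arrays without overlap. After 16 h, 8 of the 10 were called lower, against 1.48% of all probe sets, and the arrays of the same 8 did not overlap, as for 8.46% of all probe sets. The median was -0.91. The 2 that did not pass were Serpine2 and Tff3. Of 124 other genes called lower at 0 h, 51 were called lower at 6 h (41.1%), 41 at 16 h (33.1%) and 25 at both (20.2%), against 10, 8 and 8 of the 10 described here. Those 124 had smaller differences at 0 h (median -0.62). The 10 were also picked as genes whose difference lasts, so their higher shares may follow from that choice. The comparison is a description.

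**Figure D1:**
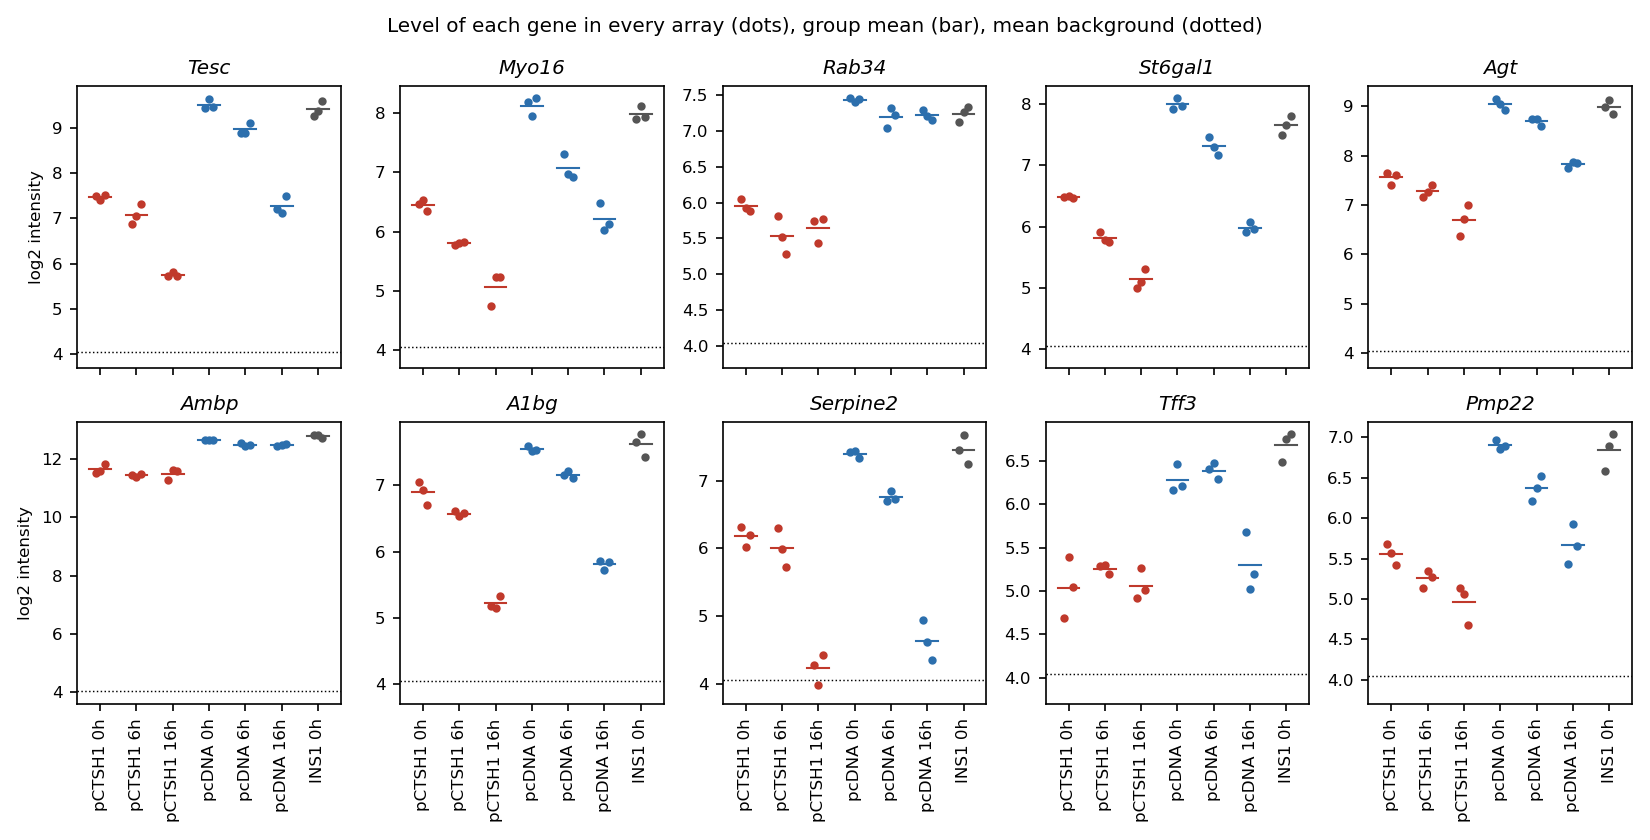
Level of each gene on the log2 intensity scale (vertical axis) in every array, with groups along the horizontal axis, dots for arrays, short bars for group means of 3 arrays and a dotted line for the mean background. The pCTSH1 dots lie below the pcDNA dots of the same time in every panel except at 16 h for Serpine2 and Tff3, where they overlap, and the INS1 dots lie near those of untreated pcDNA.

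Tesc encodes tescalcin, a calcium-binding protein that binds a sodium-proton exchanger of the plasma membrane. It had the widest gap of the 10 genes at 0 h, with 7.49, 7.41 and 7.52 in pCTSH1 and 9.43, 9.64 and 9.46 in pcDNA, a difference of -2.04 ± 0.12 (SE of the model), or 4.11-fold. At 6 h the arrays gave 6.87, 7.05 and 7.32 in pCTSH1 and 8.89, 8.89 and 9.12 in pcDNA, and Tesc was 3.69-fold lower in pCTSH1 (-1.88 ± 0.12, adjusted p = 9.42e-09, limma). The groups stayed apart at 16 h, when Tesc had 5.74, 5.81 and 5.72 in pCTSH1 and 7.22, 7.12 and 7.49 in pcDNA (-1.52 ± 0.12, adjusted p = 1.61e-07). Untreated pCTSH1 cells thus read about as low as pcDNA cells after 16 h of cytokines, and those 2 groups of arrays overlapped.

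Myo16, an unconventional myosin known mainly from the brain, followed a like course. Its arrays gave 6.46, 6.54 and 6.36 in pCTSH1 at 0 h and 8.19, 7.95 and 8.25 in pcDNA, a difference of -1.68 ± 0.14 or 3.197-fold. At 6 h they gave 5.78, 5.81 and 5.82 in pCTSH1 and 7.31, 6.98 and 6.92 in pcDNA (-1.27 ± 0.14, adjusted p = 1.41e-05, limma). At 16 h Myo16 had 4.75, 5.24 and 5.23 in pCTSH1 and 6.48, 6.02 and 6.12 in pcDNA (-1.14 ± 0.14, adjusted p = 5.42e-05). The lines did not overlap at any of the 3 times, whereas untreated pCTSH1 overlapped with pcDNA at 16 h. A second Myo16 probe set lay at background (3.57 to 3.98 in the group means) and did not pass, with -0.09 at 6 h and 0.13 at 16 h (adjusted p = 0.927 and 0.824). Averaged with it, the difference was -0.91 at 0 h, -0.68 at 6 h and -0.51 at 16 h, still called at 6 and 16 h (adjusted p = 1.38e-04 and 0.00213).

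Rab34 encodes a small GTPase of the Golgi that positions lysosomes and takes part in building primary cilia. Its gap was as wide after cytokines as before them. At 0 h the arrays gave 6.05, 5.93 and 5.88 in pCTSH1 and 7.45, 7.39 and 7.44 in pcDNA (-1.47 ± 0.12, 2.78-fold). At 6 h Rab34 had 5.81, 5.52 and 5.29 in pCTSH1 and 7.04, 7.31 and 7.23 in pcDNA, a 3.15-fold lower level in pCTSH1 (-1.65 ± 0.12, adjusted p = 4.45e-08, limma). At 16 h it had 5.75, 5.44 and 5.77 in pCTSH1 and 7.29, 7.21 and 7.15 in pcDNA (-1.57 ± 0.12, adjusted p = 1.27e-07), or 2.97-fold, the largest difference of the 10 at that time. All 9 pCTSH1 arrays lay below all 12 arrays of pcDNA and INS1. A second Rab34 probe set, at 4.39 to 4.78 in the group means, was within 1 log2 unit of background and did not pass at 6 or 16 h (adjusted p = 0.842 and 0.214). Averaged with it, the difference was -0.84 at 0 h, -0.88 at 6 h and -0.94 at 16 h, still called at 6 and 16 h (adjusted p = 5.05e-07 and 1.75e-07).

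St6gal1, the Golgi enzyme that caps N-glycans with sialic acid, had 6.47, 6.49 and 6.46 in pCTSH1 at 0 h and 7.92, 8.09 and 7.96 in pcDNA (-1.51 ± 0.10). The gap was as wide at 6 h, with 5.92, 5.78 and 5.75 in pCTSH1 and 7.46, 7.29 and 7.16 in pcDNA (-1.49 ± 0.10, adjusted p = 2.59e-08, limma). It was smaller at 16 h, with 5.01, 5.11 and 5.32 in pCTSH1 and 5.91, 6.08 and 5.96 in pcDNA, a 1.79-fold lower level in pCTSH1 (-0.84 ± 0.10, adjusted p = 3.72e-05). The 2 lines remained apart at each time in this probe set. A second St6gal1 probe set, at 3.63 to 3.88 in the group means and so at background, did not pass (adjusted p = 0.858 at 6 h and 0.717 at 16 h). Averaged with it, the difference was -0.86 at 0 h, -0.79 at 6 h and -0.47 at 16 h, still called at 6 and 16 h (adjusted p = 1.51e-06 and 4.81e-04).

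Pmp22, a membrane protein of peripheral myelin that is also made outside nerves, had 5.68, 5.57 and 5.42 in pCTSH1 at 0 h and 6.96, 6.85 and 6.89 in pcDNA (-1.35 ± 0.14). At 6 h it had 5.14, 5.35 and 5.27 in pCTSH1 and 6.21, 6.38 and 6.52 in pcDNA (-1.12 ± 0.14, adjusted p = 7.39e-05, limma). At 16 h it had 5.14, 5.06 and 4.68 in pCTSH1 and 5.43, 5.92 and 5.65 in pcDNA (-0.71 ± 0.14, adjusted p = 0.00522), without overlap. That last call depended on the fit, with an adjusted p of 0.126 when only the 6 arrays compared were used. A second Pmp22 probe set, at 4.73 to 5.64 in the group means, was lower in pCTSH1 at 6 h (-0.73, adjusted p = 0.0139) but not at 16 h (-0.08, adjusted p = 0.883). The probe sets of Pmp22 thus disagree at 16 h, where their average gave -0.40 (adjusted p = 0.0292).

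**Figure D2:**
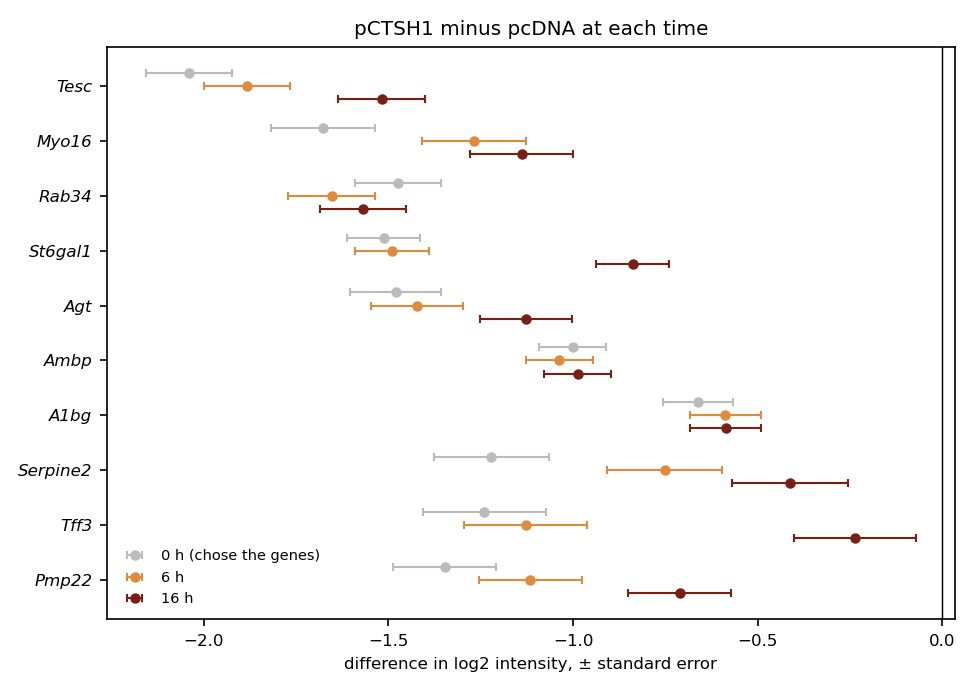
Difference in log2 intensity between pCTSH1 and pcDNA (horizontal axis) for each gene at 0 h (grey, the values that chose the genes), 6 h (orange) and 16 h (dark red), with bars for the standard error of the model. Rab34, Ambp and A1bg hold nearly the same difference at all 3 times, while the points of Serpine2, Tff3, Pmp22 and St6gal1 lie nearer to 0 at 16 h.

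The secreted plasma proteins came in different sizes. Agt encodes angiotensinogen, the precursor of angiotensin, and had 7.65, 7.41 and 7.62 in pCTSH1 at 0 h and 9.16, 9.04 and 8.92 in pcDNA (-1.48 ± 0.12, 2.79-fold). At 6 h Agt had 7.17, 7.27 and 7.40 in pCTSH1 and 8.75, 8.75 and 8.60 in pcDNA (-1.42 ± 0.12, adjusted p = 9.32e-07, limma). At 16 h it had 6.38, 6.72 and 6.99 in pCTSH1 and 7.75, 7.87 and 7.85 in pcDNA, 2.18-fold lower in pCTSH1 (-1.13 ± 0.12, adjusted p = 1.72e-05). Every pCTSH1 array of Agt, untreated ones included, lay below every pcDNA array of the 3 times.

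Ambp encodes a precursor that is cut into a small heme-binding lipocalin and the protease inhibitor bikunin, and it was by far the brightest of the 10 probe sets. It read 11.52, 11.61 and 11.82 in pCTSH1 at 0 h and 12.64, 12.67 and 12.65 in pcDNA (-1.001 ± 0.091, 2.00-fold). The gap held at 6 h, with 11.47, 11.38 and 11.49 in pCTSH1 and 12.54, 12.44 and 12.47 in pcDNA (-1.04 ± 0.09, adjusted p = 9.89e-07, limma). It held at 16 h too, with 11.28, 11.62 and 11.60 in pCTSH1 and 12.46, 12.48 and 12.52 in pcDNA (-0.99 ± 0.09, adjusted p = 1.65e-06). As with Rab34 and Agt, no pCTSH1 array reached the level of any pcDNA array.

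A1bg, a plasma glycoprotein of the immunoglobulin superfamily, had the smallest gap at 0 h, with 7.06, 6.93 and 6.70 in pCTSH1 and 7.60, 7.53 and 7.54 in pcDNA (-0.66 ± 0.10, 1.58-fold). At 6 h it had 6.61, 6.53 and 6.59 in pCTSH1 and 7.16, 7.23 and 7.11 in pcDNA (-0.59 ± 0.10, adjusted p = 0.00105, limma). At 16 h it had 5.18, 5.15 and 5.33 in pCTSH1 and 5.86, 5.72 and 5.84 in pcDNA (-0.59 ± 0.10, adjusted p = 0.00102). The arrays of the lines were apart at each time, and the call at 16 h was lost by a little when only the 6 arrays compared were used (adjusted p = 0.0506).

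Serpine2 encodes protease nexin, an extracellular inhibitor of thrombin and of plasminogen activators. It had 6.33, 6.02 and 6.20 in pCTSH1 at 0 h and 7.43, 7.45 and 7.34 in pcDNA (-1.22 ± 0.16, 2.33-fold), and at 6 h 6.30, 5.99 and 5.73 in pCTSH1 and 6.70, 6.86 and 6.73 in pcDNA (-0.75 ± 0.16, adjusted p = 0.00865, limma). The call at 6 h was lost without replicate 3 of pCTSH1 (adjusted p = 0.0632). At 16 h it had 4.27, 3.98 and 4.43 in pCTSH1 and 4.94, 4.62 and 4.35 in pcDNA, group means 0.14 and 0.57 above background, and 1 of the pCTSH1 arrays was below it. The arrays overlapped and the difference of -0.41 ± 0.16 did not pass (adjusted p = 0.178), and a level that close to background may understate the difference.

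Tff3, the intestinal trefoil peptide that is secreted with mucus, had 4.69, 5.39 and 5.04 in pCTSH1 at 0 h and 6.17, 6.46 and 6.21 in pcDNA (-1.24 ± 0.17, 2.36-fold). At 6 h it had 5.28, 5.30 and 5.19 in pCTSH1 and 6.40, 6.47 and 6.29 in pcDNA (-1.13 ± 0.17, adjusted p = 4.20e-04, limma). At 16 h the lines overlapped, with 4.92, 5.27 and 5.01 in pCTSH1 and 5.69, 5.02 and 5.19 in pcDNA (-0.24 ± 0.17, adjusted p = 0.560). All of these values were above background.

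Under cytokines most of the 10 genes fell in both lines, and the fall was larger at 16 h. These responses share the 0 h arrays with the choice of the genes, and their calls are not independent of it. Relative to 0 h, 5 of the 10 were called lower at 6 h in pCTSH1, where 16.0% of all probe sets were, and 7 of 10 in pcDNA, where 18.5% were. The median changes were -0.31 in pCTSH1 and -0.46 in pcDNA, against -0.06 for all genes in either line. St6gal1 fell by 0.66 ± 0.10 in pCTSH1 (adjusted p = 3.00e-05, limma) and fell by 0.68 ± 0.10 in pcDNA (1.59e-05). Myo16 fell by 0.65 ± 0.14 in pCTSH1 (adjusted p = 0.00130) and fell by 1.06 ± 0.14 in pcDNA (5.07e-06). Tesc and A1bg also passed in both lines, Rab34 in pCTSH1 only, and Serpine2, Pmp22 and Agt in pcDNA only, where the difference between the lines was not tested. Tff3 and Ambp passed in neither line at 6 h, with 0.22 ± 0.17 in pCTSH1 and 0.11 ± 0.17 in pcDNA for Tff3, and -0.20 ± 0.09 in pCTSH1 and -0.17 ± 0.09 in pcDNA for Ambp.

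Several of the calls at 6 h depended on the scaling or on 1 array. After cyclic loess scaling only Myo16 and St6gal1 passed in pCTSH1 (2 of 10), and 4 of 10 passed in pcDNA, where Agt, Pmp22 and A1bg were lost. That scaling also changed the share of lower ones among all called probe sets at 6 h to 48.1% in pCTSH1 and 48.4% in pcDNA, against 59.9% and 60.4% as deposited. In pCTSH1 the Tesc call was lost without replicate 1 or 2 at 6 h or replicate 3 at 0 h (adjusted p = 0.115, 0.0527 and 0.0550). The Rab34 call was lost without replicate 1 at 0 h or replicate 3 at 6 h (adjusted p = 0.0530 and 0.0890), and the A1bg call without replicate 1 or 2 at 0 h or replicate 2 at 6 h (0.108, 0.0554 and 0.0601) or in a fit of only the arrays compared (0.05055). The Agt call in pcDNA (-0.34 ± 0.12, adjusted p = 0.0436) was lost in 5 of the 6 fits that left out 1 of the arrays compared (adjusted p = 0.0660 to 0.159), with the replicate number as a block (0.0541) and after median centring (0.0502). Ambp in pCTSH1 passed with trend and robust settings of eBayes (adjusted p = 0.0278).

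At 16 h, 8 of the 10 were called lower than at 0 h in each line, against 25.6% of all probe sets in pCTSH1 and 25.1% in pcDNA. Serpine2 fell most, with -1.96 ± 0.16 in pCTSH1 and -2.77 ± 0.16 in pcDNA (3.88-fold and 6.80-fold, adjusted p = 1.73e-09 and 9.65e-12, limma), where the pCTSH1 value ends near background. Tesc fell by 1.72 ± 0.12 in pCTSH1 (3.29-fold) and fell by 2.24 ± 0.12 in pcDNA (4.72-fold). A1bg fell by 1.67 ± 0.10 in pCTSH1 and fell by 1.75 ± 0.10 in pcDNA, so that the gene with the smallest gap between the lines had one of the larger responses. The changes of Myo16 were -1.38 ± 0.14 in pCTSH1 and -1.92 ± 0.14 in pcDNA, and those of St6gal1 -1.33 ± 0.10 in pCTSH1 and -2.01 ± 0.10 in pcDNA. Agt fell by 0.86 ± 0.12 in pCTSH1 and fell by 1.22 ± 0.12 in pcDNA, and Pmp22 gave -0.59 ± 0.14 in pCTSH1 and -1.23 ± 0.14 in pcDNA. The adjusted p of these 7 genes was 0.00132 or lower in both lines, and with averaged probe sets Pmp22 in pCTSH1 lost its call (0.0525).

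The other 3 genes did not share this course. Tff3 fell by 0.98 ± 0.17 in pcDNA (adjusted p = 4.52e-05, limma), whereas in pCTSH1, where it was already low, its change was 0.02 ± 0.17. Ambp did not pass in either line at 16 h, with -0.15 ± 0.09 in pCTSH1 and -0.17 ± 0.09 in pcDNA (adjusted p = 0.195 and 0.155). Rab34 changed by -0.31 ± 0.12 in pCTSH1 (adjusted p = 0.0379) and by -0.21 ± 0.12 in pcDNA (0.158). The Rab34 call in pCTSH1 was lost without replicate 1 or 2 at 0 h or replicate 2 at 16 h (adjusted p = 0.135, 0.0633 and 0.214). It was also lost after cyclic loess (0.313) or median centring (0.157), with trend and robust settings (0.0627), with averaged probe sets (0.242) and in a fit of only the arrays compared (0.0648). Rab34 and Ambp were thus without a firm response in either line. Their gap between the lines held at all 3 times, as did that of A1bg, which fell by 1.67 in pCTSH1 and fell by 1.75 in pcDNA.

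**Figure D3:**
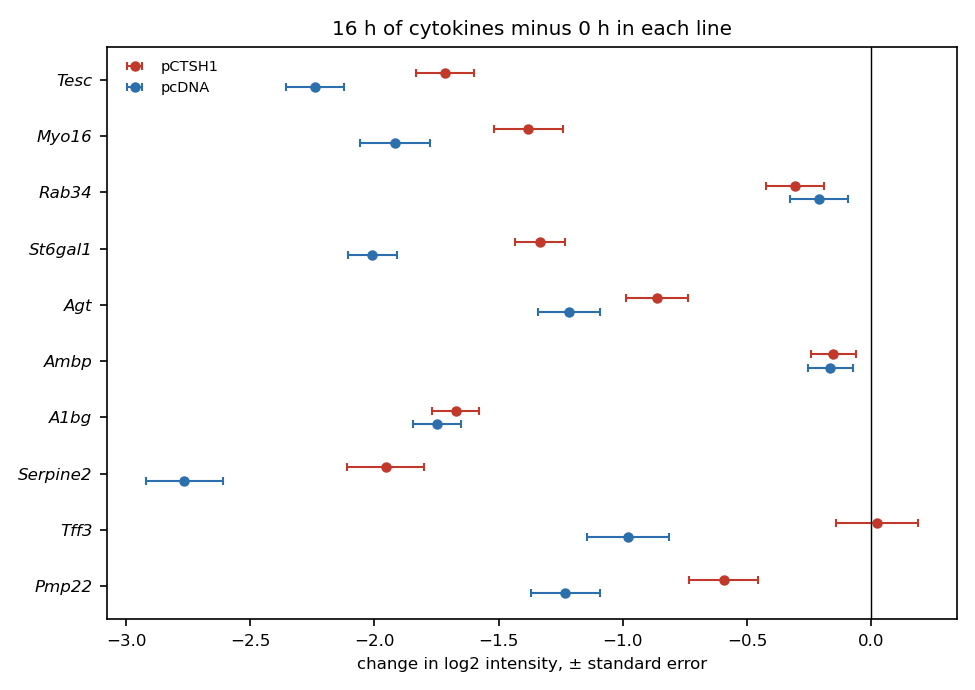
Change in log2 intensity from 0 h to 16 h of cytokines (horizontal axis) for each gene in pCTSH1 (red) and pcDNA (blue), with bars for the standard error of the model. The pcDNA point lies further below 0 than the pCTSH1 point for Tesc, Myo16, St6gal1, Agt, Serpine2, Tff3 and Pmp22, while both points of Rab34 and Ambp lie near 0 and those of A1bg lie together.

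The 16 h response was less negative in pCTSH1 than in pcDNA for 9 of the 10 genes, by 1.00 ± 0.23 for Tff3, 0.81 ± 0.22 for Serpine2, 0.68 ± 0.14 for St6gal1, 0.64 ± 0.20 for Pmp22, 0.54 ± 0.20 for Myo16, 0.52 ± 0.17 for Tesc and 0.35 ± 0.18 for Agt. A1bg (0.07 ± 0.14) and Ambp (0.01 ± 0.13) differed by less than 1 SE, and Rab34 was at -0.09 ± 0.17. These differences hold the contrast that chose the genes, so they are given without a test. At 6 h they ran from -0.18 ± 0.17 for Rab34 to 0.47 ± 0.22 for Serpine2. In pCTSH1 at 16 h the mean of Serpine2 lay 0.14 above background, Pmp22 0.87, Tff3 0.97 and Myo16 0.98. The remaining genes lay 1.05 or more above it. A level near background leaves little room to fall, and its part in these differences was not tested.

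The change between 6 and 16 h uses no array of that contrast. Over this interval 6 of the 10 genes fell in pCTSH1, against 21.9% of all probe sets, and 8 of 10 in pcDNA, against 22.0%. The 6 were Serpine2 (-1.79 ± 0.16 in pCTSH1 and -2.13 ± 0.16 in pcDNA), A1bg (-1.36 ± 0.10 in each line), Tesc (-1.33 ± 0.12 in pCTSH1 and -1.69 ± 0.12 in pcDNA), Myo16 (-0.73 ± 0.14 in pCTSH1 and -0.86 ± 0.14 in pcDNA), St6gal1 (-0.67 ± 0.10 in pCTSH1 and -1.32 ± 0.10 in pcDNA) and Agt (-0.58 ± 0.12 in pCTSH1 and -0.88 ± 0.12 in pcDNA), with adjusted p of 6.35e-04 or lower (limma). Tff3 (-1.09 ± 0.17, adjusted p = 1.66e-05) and Pmp22 (-0.70 ± 0.14, 3.22e-04) fell in pcDNA, with -0.20 ± 0.17 and -0.29 ± 0.14 in pCTSH1. Most of the fall of Serpine2, A1bg, Tesc and Agt in both lines, and of Tff3 and St6gal1 in pcDNA, thus came after 6 h, in the longer interval. The falls of Myo16 and Pmp22 in both lines, and of St6gal1 in pCTSH1, were split more evenly between the earlier and the later interval. Ambp and Rab34 changed by at most 0.11 in either line between 6 and 16 h.

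Tested directly, the late change differed between the lines for none of the 10 (limma, adjusted p below 0.05), where 0.267% of all probe sets passed. At an unadjusted p below 0.05 there were 3: St6gal1 with a late change less negative in pCTSH1 by 0.65 ± 0.14 (adjusted p = 0.0534), Tff3 by 0.89 ± 0.23 (0.128) and Tesc by 0.37 ± 0.17 (0.483). The share of all probe sets at that unadjusted cut-off was not counted, so nothing is read from the 3. St6gal1 sat at the threshold. It passed after cyclic loess (0.69, adjusted p = 0.0416), among the brighter 50% of probe sets (0.0254) and without replicate 1 of pCTSH1 at 16 h (0.72, 0.0435), and Tff3 passed without replicate 1 of pcDNA at 16 h (1.08, 0.0471).

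Untransfected INS1 cells gave a second standard for the untreated state. All 10 genes were lower in pCTSH1 than in INS1, where 0.857% of all probe sets were called lower, and none of the arrays overlapped, against 7.16% of all probe sets. The untreated pCTSH1 arrays are among those that chose the genes, so only the INS1 side of this comparison is new. Tesc had 9.27, 9.38 and 9.59 in INS1 and was 3.85-fold lower in pCTSH1 (-1.94 ± 0.12, adjusted p = 4.64e-09, limma). Tff3, with 6.48, 6.76 and 6.81 in INS1, was 3.12-fold lower in pCTSH1 (-1.64 ± 0.17, adjusted p = 5.79e-06). Myo16 (7.91, 8.12 and 7.93 in INS1) and Agt (8.98, 9.12 and 8.84) differed by -1.53 ± 0.14 and -1.42 ± 0.12. The remaining genes ran from -1.29 ± 0.12 for Rab34 to -0.73 ± 0.10 for A1bg (adjusted p = 1.31e-04, the highest of the 10).

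The empty vector line lay close to INS1. Its untreated arrays also took part in choosing the genes, so here too only the INS1 side is new. None of the 10 genes passed between pcDNA and INS1 (limma, 0 of 10, and 0.00966% of all probe sets), and 2 had an unadjusted p below 0.05. The share of all probe sets at that unadjusted cut-off was not counted, so nothing is read from the 2. St6gal1 had 7.92, 8.09 and 7.96 in pcDNA and 7.50, 7.66 and 7.80 in INS1 (0.34 ± 0.10, adjusted p = 0.808). Tff3 had 6.17, 6.46 and 6.21 in pcDNA and 6.48, 6.76 and 6.81 in INS1 (-0.40 ± 0.17, adjusted p = 0.969). Arrays of pcDNA lay wholly above those of INS1 for St6gal1 and Rab34, as for 5.20% of all probe sets, and wholly below them for Tff3 and Ambp, as for 3.81%. For the other 6 genes the untreated pcDNA and INS1 arrays overlapped, with differences of -0.06 to 0.14.

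**Figure D4:**
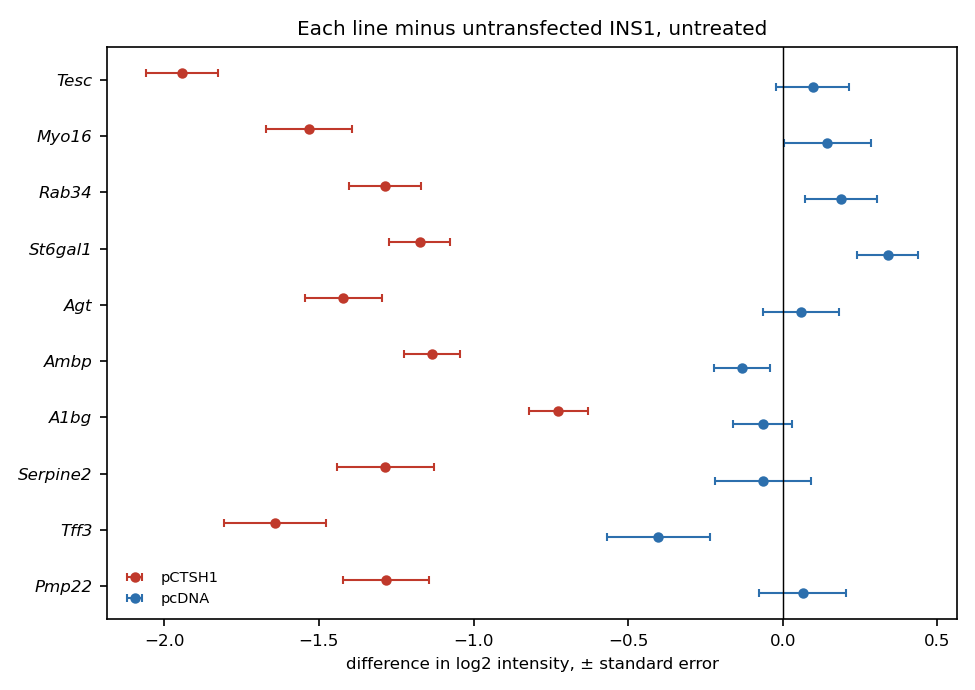
Difference in log2 intensity from untransfected INS1 cells without cytokines (horizontal axis) for each gene in pCTSH1 (red) and pcDNA (blue), with bars for the standard error of the model. The red points lie between -1.94 and -0.73 and the blue points between -0.40 and 0.34.

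Ordered by level over all 7 groups, untreated pcDNA or untreated INS1 was highest for each of the 10 genes, and a pCTSH1 group was lowest. The lowest was pCTSH1 at 16 h for Tesc, Myo16, St6gal1, Pmp22, Agt, A1bg and Serpine2, pCTSH1 at 6 h for Rab34 and Ambp, and untreated pCTSH1 for Tff3. For Rab34, Ambp and Agt the 3 pCTSH1 groups were the 3 lowest, and also for Pmp22 and Tff3, where untreated pCTSH1 and pCTSH1 at 6 h overlapped in turn with pcDNA at 16 h. For A1bg and Serpine2, pcDNA at 16 h read below pCTSH1 at 6 h without overlap. The lowest group overlapped with its neighbour in the order for Rab34, Ambp, Tff3 and Serpine2, and the 2 highest groups overlapped for Tesc, Myo16, Pmp22, Agt, A1bg and Serpine2. Correlations over the 7 group means between pairs of the 10 genes ran from 0.508 to 0.993 with a median of 0.895, and every pair shares the same arrays. The untreated means of pCTSH1 and pcDNA, which chose the genes, are among the 7. The order of the groups and the positive correlations thus follow in part from the choice, and nothing is read from them.

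Lists of genes that share a pathway or family with the 10 were compared between the lines, and for each list the number of genes above background, in at least 50% of the arrays, is given beside it. Of all probe sets, 1.75% were called higher in pCTSH1 at 6 h and 2.33% at 16 h, beside the lower ones given above. In a list of plasma proteins made by liver, 2 of 23 measured genes, 7 of them above background, were lower in pCTSH1 at 6 h and 1 at 16 h, with a median difference of -0.05 and -0.03. The 1 at both times was Fetub, which encodes the plasma protein fetuin-B (-0.54 ± 0.11 at 6 h, adjusted p = 0.00942, and -0.51 ± 0.11 at 16 h, 0.0131, limma). The other at 6 h was the fibrinogen chain gene Fgg, with -1.07 ± 0.25 (0.0222). No gene of the renin-angiotensin system, to which Agt belongs, passed at either time, of 11 measured and 6 above background. Of 18 other sialyltransferase and sialic acid supply genes, 14 were above background, and St3gal6 was lower at 6 h (-0.34, adjusted p = 0.0218) and St6galnac6 higher at 16 h (0.47, 0.0330). Of 19 serpins and extracellular proteases, 8 were above background, and Serping1 was lower at 6 h (-0.53, 0.0244) and Spint1 (0.58, 0.0187), St14 (0.40, 0.0189) and Serpinc1 (0.41, 0.0234, near background) were higher at 16 h. No call was made at either time among 10 trefoil and mucosal secretory genes (5 above background), 14 Schwann and myelin genes (5), 6 relatives of tescalcin and sodium-proton exchange genes (5) and 15 genes of Rab34 partners and the primary cilium (12). Of 13 unconventional myosins, 10 above background, 1 was lower at 6 h, Myo9b (-0.44, 0.0193), and none at 16 h.

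Of 11 measured transcription factors of liver and endoderm, 7 above background, 3 were lower and 1 higher in pCTSH1 at 6 h, and 1 was lower at 16 h. Cebpd, a factor of the acute phase response, was lower in pCTSH1 at 6 h (-0.995 ± 0.09, adjusted p = 2.18e-06, limma) and at 16 h (-0.55, 0.00151), with group means of 6.09, 8.84 and 9.05 at 0, 6 and 16 h in pCTSH1 and 7.21, 9.84 and 9.60 in pcDNA. Its means were higher at 6 and 16 h than at 0 h in both lines. At 6 h Onecut1 (-1.16, adjusted p = 6.35e-04) and Cebpb (-0.54, 0.00226) were lower and the bile acid receptor Nr1h4 was higher (0.58, 0.0407), and none of these 3 passed at 16 h. The mean of Onecut1 was near background in pCTSH1 at 6 h (4.24), and at 16 h in pCTSH1 (4.009) and pcDNA (4.125).

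The 10 genes lie on 9 rat chromosomes, with Rab34 and Pmp22 both on chromosome 10. Of the 99 measured protein-coding genes nearest to them, up to 5 on each side, 4 were called lower (4.04%) and 3 higher (3.03%) in pCTSH1 at 6 h, and 5 lower (5.05%) and 2 higher (2.02%) at 16 h. Of all 13438 genes, 1.56% were called lower and 2.43% higher at 6 h, and 1.96% lower and 3.32% higher at 16 h. Genes at background are among the 13438 but not among the neighbours, so the shares are not on the same footing. The difference between them was not tested. The 4 lower at 6 h were Fetub among the neighbours of St6gal1, Abcg1 among those of Tff3, Ccl20 of Serpine2 and Myc of A1bg, not all of them adjacent. The median difference among the neighbours of a gene ran from -0.10 to 0.09 at 6 h, on the log2 scale.

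Outside the list, the gene whose 7 group means followed each of the 10 most closely was sought among 4070 genes with a span of at least 1 log2 unit. Fetub was closest to Tesc, St6gal1 and Myo16 (Pearson r of 0.991, 0.992 and 0.993), with group means of 7.995, 7.75 and 7.32 in pCTSH1 at 0, 6 and 16 h, 8.61, 8.29 and 7.83 in pcDNA and 8.55 in INS1. Ctnna2, an alpha-catenin of neurons, was closest to Rab34 and Ambp (0.948 and 0.954). Gmds, an enzyme of GDP-fucose synthesis, was closest to Agt (0.993), the calcium buffer gene Calb1 to Pmp22 (0.975), Tmem178a to Tff3 (0.929), the peptide-amidating enzyme Pam to Serpine2 (0.996) and the vesicular monoamine transporter gene Slc18a1 to A1bg (0.998). These correlations are over 7 group means that all share the same arrays, and each was picked as the highest of many.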

How the data were processed

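RNA from 21 INS-1 samples was measured, 1 Affymetrix rat array per sample. The deposited table holds log2 intensities per probe set, which the authors made with RMA (background correction, quantile normalization, summary), named with affy and limma per the submitters' processing notes, without versions. After removal of 95 array controls from 31137 probe sets, the other 31042 were tested as deposited, with no filter. The array annotation gave 1 symbol for 19063, several for 572 and none for 11407, and 3985 of 13438 genes had several probe sets. Tests were two-sided, with limma 3.58.1 in R 4.3.3 (lmFit, eBayes, 7 group means over 21 arrays, 14 residual degrees of freedom) and Benjamini-Hochberg adjustment over 31042 probe sets within each of 11 comparisons, at 0.05. Values after ± are standard errors of that model. For the 10 genes, no p-value is given at 0 h or for differences between responses from 0 h, which contain that contrast; calls at 0 h are used only to count other genes. A group mean under 0.5 above background was taken as near it. The number of arrays limits the precision.

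The genes, lists, markers and comparisons were chosen with earlier results of these data known. Named beside the 10 genes are the closest gene to each, up to 4 genes of a list past the threshold at 6 or 16 h, Ctsh, Rac2, Ins1 and Ins2, and marker genes or neighbours that a count refers to. Rac2 averaged 4.40, 5.68 and 7.40 in pCTSH1 at 0, 6 and 16 h, 4.50, 5.15 and 6.04 in pcDNA and 4.50 in INS1, and Ins2 13.27, 13.21 and 13.09 in pCTSH1, 12.98, 12.78 and 12.35 in pcDNA and 13.18 in INS1. Residuals of arrays with equal replicate number correlated at -0.0903 to 0.244, and all 3 pairs exceeded 0.1 in 2 of 21 pairs of groups (untreated pCTSH1 with pcDNA, and untreated pcDNA with INS1), so the number was a block in an alternative fit alone. Further alternatives were eBayes with robust and trend settings, the brighter 50% of probe sets, cyclic loess, median centring, averaged probe sets per gene, a fit limited to the arrays being compared, and leaving out each array. The method was also run on simulated data with independent noise of equal spread in all groups. That setting does not cover the wider spread at 16 h or the correlated residuals, and nothing is read from it here. Figures used matplotlib 3.10.9 (Python 3.11.15).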

Additional observations from a re-analysis of the deposited data

How the results depend on the processing

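The counts of genes called between the lines at 6 and 16 h ran from 9 to 10 and from 6 to 8 over all alternatives, the 6 coming from the fit on only the arrays compared, and each of the 10 differences kept its sign at all 3 times. The median difference at 0 h was -1.04 when a gene's probe sets were averaged, and -1.46 to -1.36 when single arrays were left out. Averaging brings in second, dimmer probe sets of Rab34, St6gal1, Myo16 and Pmp22, of which that of Pmp22 lay above background. Responses at 6 h depended most on the scaling. After cyclic loess 2 genes were called in pCTSH1 and 4 in pcDNA, and leaving out single arrays gave 3 to 4 in pCTSH1; the cause was not tested. For the difference of the late change between the lines, cyclic loess and the brighter 50% of probe sets gave 1 call each, and leaving out single arrays 0 to 1. With the replicate number as a block the counts were 10 and 8 between the lines at 6 and 16 h, and 6 in place of 7 for pcDNA at 6 h, where Agt was lost; no other call changed.

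Among the tested differences, changes of sign occurred only in ones that were near 0 and did not pass. With averaged probe sets, the late-change difference of Rab34 was -0.056. Leaving out single arrays, that difference ran from -0.040 to 0.22 for Rab34, -0.0093 to 0.16 for Ambp and -0.054 to 0.036 for A1bg. The change from 6 to 16 h ran from -0.017 to 0.24 for Rab34 and -0.0065 to 0.16 for Ambp in pCTSH1, and from -0.052 to 0.084 for Rab34 and -0.020 to 0.031 for Ambp in pcDNA. The 16 h response of Tff3 in pCTSH1 ran from -0.15 to 0.20. Between pcDNA and INS1 the ranges were -0.065 to 0.17 for Pmp22, -0.17 to 0.047 for Serpine2, -0.16 to 0.011 for A1bg and -0.012 to 0.13 for Agt. A level near background limits Serpine2 in pCTSH1 at 16 h.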
